A study of Homo sapiens with 6 samples.

Results

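The IgLON family comprises 5 genes, NTM (neurotrimin), OPCML, LSAMP, NEGR1 and IGLON5, of the 39020 genes listed in any of the 6 libraries. They were found by gene symbol, and all 5 had counts in every library. NTM was selected on its share of the iCLIP counts in untreated cells, which was among the highest of all genes, with its lower iCLIP level after irradiation and its RNA-seq level known, and the others because they belong to the same family. Their iCLIP levels and their iCLIP to RNA-seq ratios are therefore descriptions.

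IgLON proteins are small cell adhesion molecules of the immunoglobulin superfamily, with immunoglobulin domains outside the cell and a glycosylphosphatidylinositol (GPI) anchor in place of a membrane-spanning segment. They bind themselves and each other between cells, and are best known from the nervous system, where they guide neurite growth and synapse formation. Outside the brain OPCML, LSAMP and NEGR1 are known as candidate tumour suppressors, and LSAMP is recurrently deleted in osteosarcoma.

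U2OS is a human osteosarcoma cell line. Irradiated cells were given an X-ray dose of 5 Gy followed by 4 h of recovery, and untreated cells received neither. For RNA-seq the design text names gamma rays where the sample labels name X-rays. TIRR, the product of NUDT16L1, is an RNA-binding partner of the DNA repair protein 53BP1. In iCLIP, RNA is crosslinked to its bound protein by ultraviolet light. Fragments purified through the FLAG tag on TIRR were sequenced in 2 irradiated and 2 untreated libraries of U2OS cells that stably carry the tagged protein (genotype TIRR_FLAG). RNA-seq was made from wild-type U2OS cells, with 1 irradiated and 1 untreated library. The assays therefore differ in genotype as well as in method. Cells with an empty vector are named in the design text but were not analysed here, so no iCLIP background was subtracted. Nothing in the labels tells if the replicates came from separate cultures, so p-values reflect only the scatter of these libraries and that scatter may be technical.

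The irradiated iCLIP libraries held 400723 and 664777 counts on genes, and the untreated ones 781997 and 799709. The RNA-seq libraries held 13023903 (irradiated) and 13015406 (untreated). Of 3090 genes with at least 1000 counts in untreated RNA-seq, 642 had no line in any iCLIP table, among them FLNA and the collagen gene COL1A1, so a missing line is not read as missing RNA. In both RNA-seq libraries 7 of 12 osteoblast and mesenchymal markers and 8 of 12 neuronal markers had at least 10 counts. IBSP and SP7 of the osteoblast list were at 0, and none of the neuronal list was. Per 1000000 gene counts the osteoblast list summed to 8160 (irradiated, led by COL1A1) and 7609 (untreated, led by VIM). The neuronal list, led by TUBB3, summed to 301 (irradiated) and 225 (untreated). The 7 epithelial markers, led by KRT18, summed to 492 (irradiated) and 526 (untreated), above the neuronal list. The 8 glial markers summed to 16.3 (irradiated) and 15.5 (untreated). In these bulk samples, fewer cells with an RNA and less RNA per cell cannot be told apart.

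NTM and OPCML lie next to each other on chromosome 11, 78158 bases apart. In RefSeq (assembly GRCh38.p14) NTM spans chr11:131370615-132336822 and OPCML chr11:132414981-133532501. LSAMP spans chr3:115802374-116445487, NEGR1 chr1:71395943-72282539 and IGLON5 chr19:51311644-51330891. The deposited iCLIP tables assign 965857 bases to NTM, 1103880 to OPCML, 1335715 to LSAMP, 886063 to NEGR1 and 19248 to IGLON5. These lengths include introns, and that of LSAMP is far above its RefSeq span of 643114 bases. IGLON5 is thus a compact gene in a family of very long ones. RefSeq places 23 other genes within or across these spans, and 18 of them have no line in the tables, so their part in the members' counts is not known. Of the 5 with a line, RNU6ATAC12P in NTM had 5 iCLIP counts over the 4 libraries, OPCML-IT1 had 2, LSAMP-AS1 had 1, and NTM-AS1 and GDI2P2 had 0.

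The RefSeq windows from 250 bases before to 50 after each annotated start were searched for the decamer motif of p53, the transcription factor activated by DNA damage. A full p53 site holds a pair of such decamers, and single decamers were counted here. The motif reads the same on both strands and occurred in 6.63% of 35116 such windows of all genes. It had 0 matches in the 5 NTM windows, the 2 OPCML windows and the LSAMP window, and 1 match in the IGLON5 window; NEGR1 was not matched in the table. A match is a run of letters and not a shown site. The windows below are those of the most upstream NTM start and of IGLON5, on the plus strand, shown as the members with the most and the fewest iCLIP counts. Capitals mark the single p53 decamer.
NTM chr11:131370365-131370664: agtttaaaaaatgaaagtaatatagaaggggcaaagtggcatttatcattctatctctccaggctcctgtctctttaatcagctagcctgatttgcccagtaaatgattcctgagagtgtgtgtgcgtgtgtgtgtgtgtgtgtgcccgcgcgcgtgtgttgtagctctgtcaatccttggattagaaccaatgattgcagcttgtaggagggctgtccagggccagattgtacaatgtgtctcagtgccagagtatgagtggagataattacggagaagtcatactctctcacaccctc
IGLON5 chr19:51311394-51311693: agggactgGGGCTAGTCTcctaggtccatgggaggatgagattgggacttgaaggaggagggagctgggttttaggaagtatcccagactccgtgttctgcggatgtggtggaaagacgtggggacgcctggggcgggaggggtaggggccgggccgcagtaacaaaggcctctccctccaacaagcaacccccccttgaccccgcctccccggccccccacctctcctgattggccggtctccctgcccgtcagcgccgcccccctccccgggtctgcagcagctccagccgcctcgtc

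NTM was the most abundant member in the TIRR iCLIP libraries. It had 2037 and 3281 counts in the irradiated libraries, against 6363 and 6712 in the untreated ones. As a share of the gene counts this was 0.508% (exact Clopper-Pearson 95% interval 0.487 to 0.531) and 0.494% (0.477 to 0.511) in irradiated cells, and 0.814% (0.794 to 0.834) and 0.839% (0.819 to 0.860) in untreated cells. Both irradiated libraries lay below both untreated ones, and the replicates of each group differed little. By mean share NTM ranked 6 of 23473 listed genes in irradiated and 4 of 25418 in untreated cells.

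NTM fell after irradiation in iCLIP. Its level was 5130 ± 155 CPM in irradiated and 8072 ± 163 CPM in untreated libraries (CPM being counts per 1000000 after TMM scaling, mean ± SD, n = 2 each). On the log2 scale the change was -0.65 ± 0.095 (SE), with a 95% interval of -0.85 to -0.45, or 1.57-fold lower (edgeR quasi-likelihood test, adjusted p = 0.000361 over 9230 genes). Both irradiated libraries were lower than both untreated ones, as they were in 22.0% of all tested genes. Since NTM was chosen with these results known, the p is that of its row in the fit and not an independent test. Among all tested genes 3.5% changed (224 rose and 99 fell at an adjusted p below 0.05), and 1.07% fell. Scaled by library totals, 184 rose and 132 fell. NTM was called under each of the alternatives run, with log2 fold changes of -0.72 to -0.62.

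In size the fall of NTM was moderate, rank 77 of the 99 falls counted from the largest log2 change. In untreated level it was the highest of them, and it lost the most, 2943 CPM, followed by the lipid transfer gene OSBPL10 with 741 CPM. NTM made up 21.6% of all CPM lost by the 99 fallen genes. NTM was chosen on its untreated level with its fall known, so its places by level and by CPM lost only describe that choice. On a plot of change against level it stands alone at the high end of the falls.

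**Figure D1:**
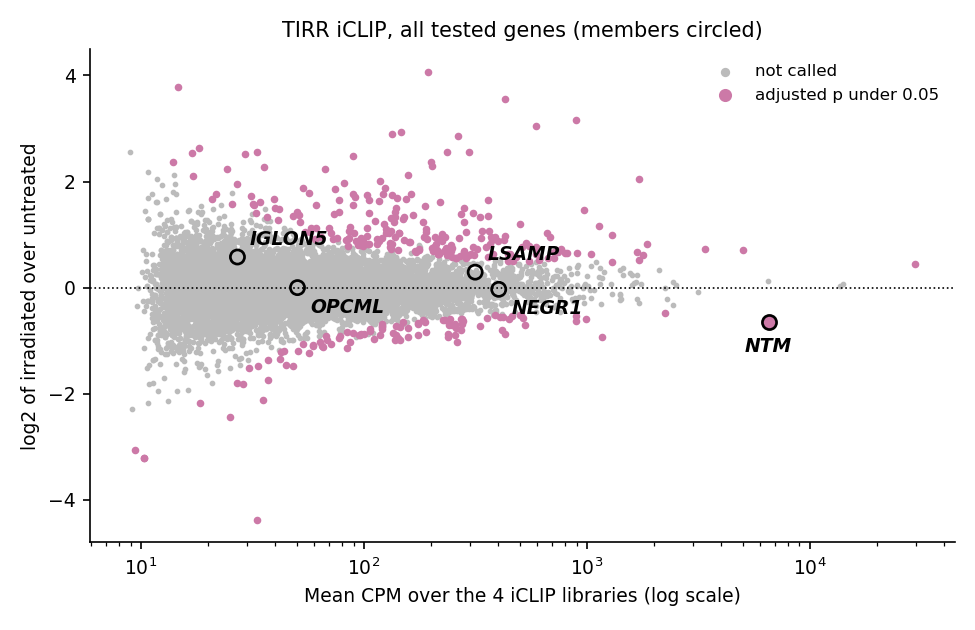
log2 of irradiated over untreated iCLIP level (vertical) against mean CPM over the 4 iCLIP libraries (horizontal, log scale) for 9230 tested genes. Coloured points have an adjusted p below 0.05, and the 5 members are circled: NTM lies at -0.65, while the other 4 lie among genes that were not called.

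The other 4 members gave no call, against 3.5% of all tested genes. The 1 call among the 5 members was that of NTM. Since NTM was chosen with its fall known, that call is not set against this share. Their estimates lay on both sides of 0. LSAMP, the limbic system-associated adhesion protein, had 140 and 220 counts in the irradiated and 237 and 222 in the untreated libraries. This was 348 ± 16.6 CPM in irradiated and 284 ± 18.1 CPM in untreated libraries (SD, n = 2 each). The log2 fold change was 0.29 with an interval of -0.0067 to 0.59 (edgeR adjusted p = 0.357). Both irradiated libraries were above both untreated ones, but the groups did not overlap in 44.0% of all tested genes either, and in 3 of the 5 members.

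NEGR1, the neuronal growth regulator whose locus is associated with body mass, had 141 and 282 counts in irradiated and 334 and 328 in untreated libraries. Its level was 397 ± 48.6 CPM in irradiated and 409 ± 12.4 CPM in untreated libraries (SD, n = 2 each), and the groups overlapped. The log2 fold change was -0.03 with an interval of -0.33 to 0.26 (edgeR adjusted p = 0.958).

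OPCML, the opioid-binding member and neighbour of NTM, was sparse, with 24 and 27 counts in irradiated and 33 and 47 in untreated libraries. Its level was 51.5 ± 14.4 CPM in irradiated and 49.3 ± 11.4 CPM in untreated libraries (SD, n = 2 each). The groups overlapped, and the interval of the log2 fold change ran from -0.65 to 0.65 (edgeR adjusted p = 0.999). A fall of the size seen in NTM lies at the edge of this interval, so little can be said of OPCML at this depth.

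IGLON5, the member known as the target of antibodies in a sleep and movement disorder, had 10 and 25 counts in irradiated and 19 and 17 in untreated libraries. Its level was 32.0 ± 8.86 CPM in irradiated and 22.2 ± 2.14 CPM in untreated libraries (SD, n = 2 each). Both irradiated libraries were higher, but the interval of the log2 fold change ran from -0.18 to 1.34 (edgeR adjusted p = 0.511). The log2 fold change was 0.58, and 0.21 without irradiated library 2.

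NTM made up most of the family's iCLIP counts in every library, and less of them after irradiation. Its share of the family was 86.6% (exact Clopper-Pearson 95% interval 85.2 to 88.0) and 85.6% (84.4 to 86.7) in irradiated libraries, and 91.1% (90.4 to 91.7) and 91.6% (91.0 to 92.2) in untreated ones. The groups did not overlap, and the mean difference was -5.27 percentage points. A two-sided exact permutation test gave p = 0.333, the smallest that 2 against 2 libraries can give, so it cannot decide. This difference restates the fall of NTM, which was known when NTM was chosen. The other 4 members together took 0.0786% and 0.0833% of the gene counts in irradiated and 0.0797% and 0.0768% in untreated libraries. These groups overlapped.

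In RNA-seq NTM was close to its untreated level in the irradiated library. It had 1316 counts in the irradiated and 1348 in the untreated library, a TMM-scaled ratio of 0.965 (95% counting interval 0.894 to 1.04). LSAMP had 275 counts in the irradiated and 271 in the untreated library, a ratio of 1.003 (0.845 to 1.19), and NEGR1 had 706 in the irradiated and 702 in the untreated library, a ratio of 0.994 (0.895 to 1.11). These ratios compare single libraries and have no replicate check, and the intervals cover counting error only. None of the 5 members reached a 2-fold difference with an interval beyond 1.5-fold, against 1.49% of the 12977 genes whose larger count was at least 100 (0.863% higher and 0.624% lower).

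OPCML and IGLON5 had the most uneven RNA-seq values. OPCML had 48 counts in the irradiated and 30 in the untreated library, too few for the size rule, with a ratio of 1.58 (95% counting interval 0.982 to 2.59). IGLON5 had 368 counts in the irradiated and 442 in the untreated library, a ratio of 0.823 (0.715 to 0.948).

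For NTM the interval of the iCLIP change lay below that of the RNA-seq ratio. On the log2 scale the iCLIP change was -0.65 (interval -0.85 to -0.45) and the RNA-seq difference -0.05. The difference between the assays was not tested, because RNA-seq has 1 library per condition. The summed counts of the osteoblast and mesenchymal list were 881 and 894 per 1000000 gene counts in irradiated and 1330 and 1309 in untreated iCLIP libraries. Without the bone transcription factor gene RUNX2, left out after seeing the data, they were 215 and 188 in irradiated and 211 and 198 in untreated libraries, which overlapped. Of its 12 markers 7 had no iCLIP line. The neuronal list summed to 424 and 391 per 1000000 gene counts in irradiated and 421 and 446 in untreated iCLIP libraries, with NEFM at 0. The part of either in the fall of NTM was not tested.

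**Figure D2:**
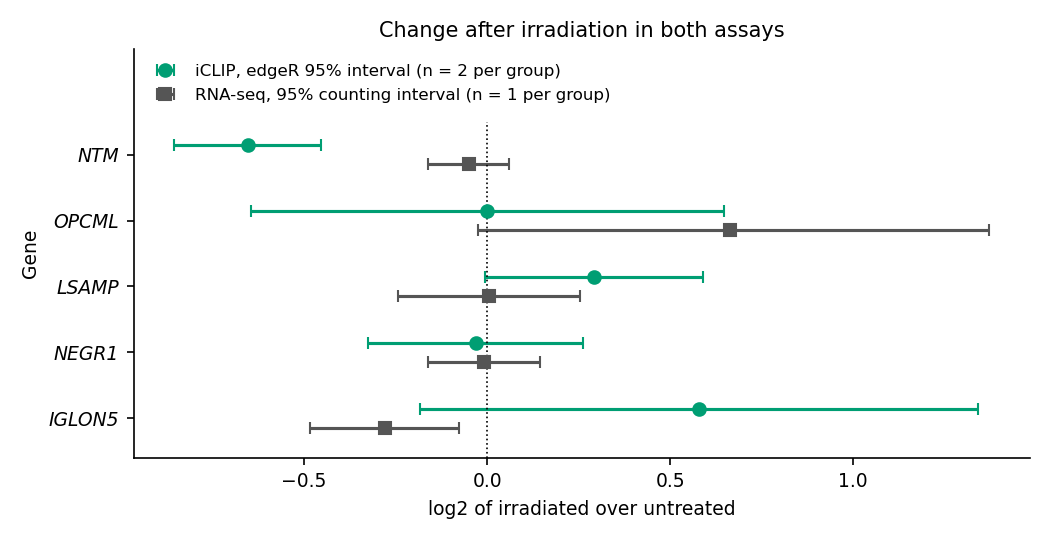
log2 of irradiated over untreated (horizontal) for the 5 members in iCLIP (circles, edgeR estimate with 95% interval, n = 2 per group) and in RNA-seq (squares, ratio of 1 library each with 95% counting interval). The NTM iCLIP interval, -0.85 to -0.45, excludes 0, and its RNA-seq interval includes 0.

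Per kb of assigned length, which lets genes of unlike length be compared, the order of the members differed between the assays. In iCLIP of irradiated cells NTM had 5.19 ± 0.108 counts per kb per 1000000 gene counts, IGLON5 1.63 ± 0.465, NEGR1 0.438 ± 0.0577, LSAMP 0.255 ± 0.00976 and OPCML 0.0455 ± 0.0123 (SD, n = 2 each). In untreated cells the order was the same, with NTM at 8.56 ± 0.188, IGLON5 at 1.18 ± 0.112, NEGR1 at 0.472 ± 0.0135, LSAMP at 0.217 ± 0.0135 and OPCML at 0.0457 ± 0.0106. With these lengths no neighbours in the order overlapped in their libraries. The order of NEGR1 and LSAMP depended on the length used. Over the RefSeq span, an alternative chosen after seeing the data, LSAMP had 0.529 ± 0.0203 in irradiated and 0.451 ± 0.0280 in untreated cells, above NEGR1 in both irradiated libraries and overlapping it in the untreated ones. The density of NTM was 114 times that of OPCML in irradiated and 187 times in untreated cells, although the genes are adjacent and of similar length.

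In RNA-seq IGLON5 came first per kb, with 1.47 counts per kb per 1000000 gene counts in irradiated and 1.76 in untreated cells. NTM had 0.105 in irradiated and 0.107 in untreated cells, NEGR1 0.0612 in irradiated and 0.0609 in untreated cells. LSAMP had 0.0158 in irradiated and 0.0156 in untreated cells, and OPCML 0.00333 in irradiated and 0.00208 in untreated cells. NTM was 1.71 times as dense as NEGR1 in irradiated and 1.76 times in untreated RNA-seq, compared with 11.8 times in irradiated and 18.1 times in untreated iCLIP. Because the length holds introns, the short IGLON5 and the long members are not alike in what a count per kb covers.

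**Figure D3:**
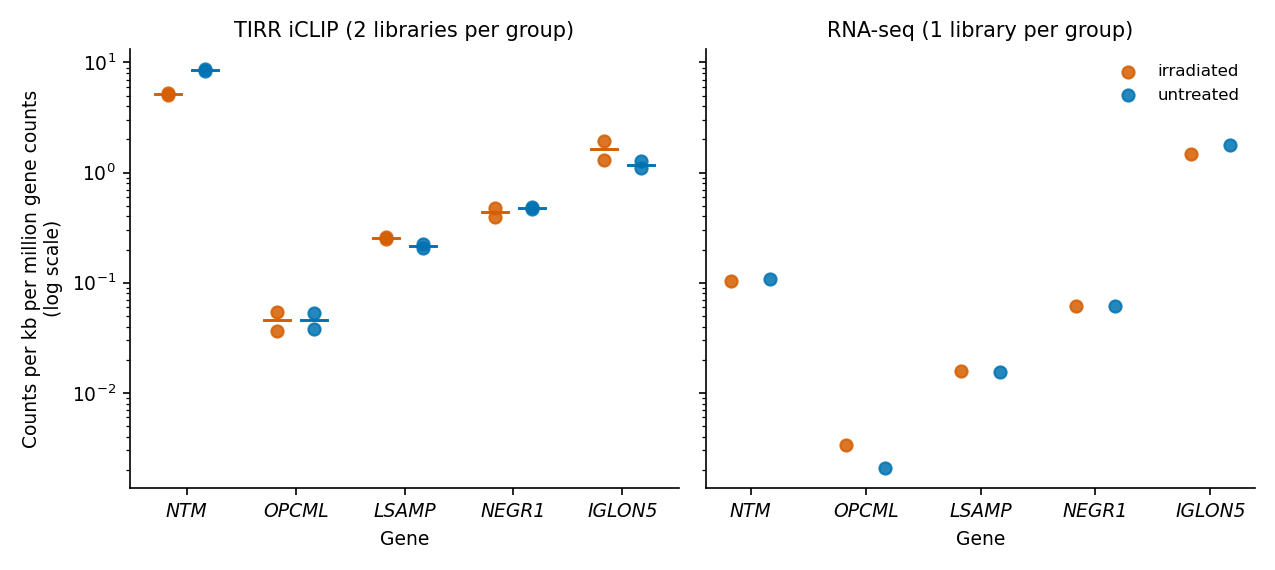
Counts per kb of assigned length per 1000000 gene counts (log scale) of the 5 members in iCLIP (left, 2 libraries per group with their mean as a bar) and RNA-seq (right, 1 library per group), irradiated and untreated. NTM is highest in iCLIP, at 5.19 in irradiated and 8.56 in untreated cells, and IGLON5 is highest in RNA-seq.

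NTM had the highest iCLIP density of the 405 genes of at least 500 kb with iCLIP counts, in irradiated and in untreated cells. In untreated cells the clock and nuclear receptor gene RORA had a density of 3.41 at rank 2, and SDK1, an adhesion gene of the immunoglobulin superfamily, 2.62 at rank 4. The median density was 0.114. NEGR1 ranked 73 in irradiated and 77 in untreated cells, LSAMP, over its deposited length, 119 in irradiated and 135 in untreated cells, and OPCML 301 in irradiated and 308 in untreated cells. In RNA-seq NTM ranked 23 of 414 such genes in the irradiated and 20 of 408 in the untreated library. Of 404 tested long genes, NTM among them, 15 fell (3.71%) and 8 rose, against 1.07% lower and 2.43% higher among all tested genes. Their median log2 fold change was -0.10, against 0.0016 over all tested genes. Lower iCLIP counts after irradiation were thus not confined to NTM. Among the 404 long genes NTM had rank 22 from the lowest by log2 fold change.

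The share of NTM was far higher in iCLIP than in RNA-seq. With a prior count of 0.5 its iCLIP share was 49.6 ± 1.04 times its RNA-seq share in irradiated and 79.8 ± 1.75 times in untreated cells (SD over 2 iCLIP libraries, 1 RNA-seq library each). OPCML had ratios of 13.8 ± 3.75 in irradiated and 21.8 ± 5.00 in untreated cells, and LSAMP 16.1 ± 0.633 and 13.9 ± 0.864. NEGR1 had 7.17 ± 0.936 in irradiated and 7.77 ± 0.222 in untreated cells. IGLON5 stood near 1, with 1.14 ± 0.304 in irradiated and 0.689 ± 0.0635 in untreated cells.

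In both conditions NTM, LSAMP and NEGR1 were at least 4-fold over RNA-seq, and IGLON5 was not. Genes entered this comparison with at least 50 RNA-seq counts or 50 summed iCLIP counts in the condition, and OPCML, with 48 RNA-seq counts in irradiated and 30 in untreated cells, entered through iCLIP alone, the assay in which it is high. Its ratio, also above 4-fold, is therefore given as a value only. That of NTM is a description too, since NTM was chosen on its iCLIP level. Of all genes that entered, the 4-fold level was reached by 13.5% of 15099 in irradiated and 15.4% of 15316 in untreated cells. Among genes with a line in any iCLIP table these percentages were 17.4% and 19.6%. Among the long genes that entered, the median ratio was 13.5 in irradiated and 19.2 in untreated cells. Any gene could enter through iCLIP alone, which favours a high ratio, so these medians and the percentages above are values only. Different numbers of long genes entered in each condition, so the medians are not compared with each other. NTM lay above these medians, at rank 50 of 285 in irradiated and 50 of 337 in untreated cells, while LSAMP and NEGR1 lay below the untreated one. With RNA-seq counts limited to genes that have an iCLIP line, an alternative chosen after seeing the data, NTM had 39.7 in irradiated and 64.3 in untreated cells.

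**Figure D4:**
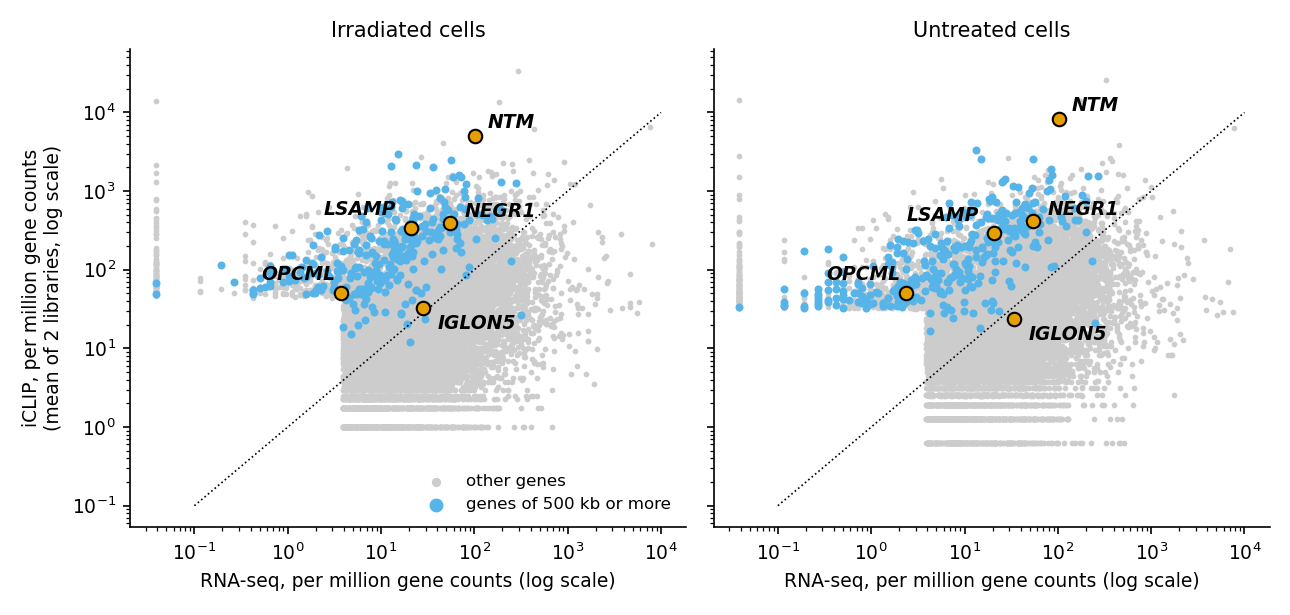
iCLIP level (mean of 2 libraries) against RNA-seq level (1 library), both per 1000000 gene counts with a prior count of 0.5 on log scales, in irradiated and untreated cells. The dotted line marks equal levels; the long members lie above it with other genes of 500 kb or more, NTM the farthest of the 5, and IGLON5 lies near it.

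None of the tested genes near NTM and OPCML was called lower with NTM. Of 20 protein-coding RefSeq genes within 2 Mb on either side, 13 had an iCLIP line and 9 were tested. None was called lower and 1 rose, against 1.07% and 2.43% of all tested genes, and their median log2 fold change was 0.11. With 9 genes tested, the lack of a lower call says little about the region. At an unadjusted edgeR p below 0.05, 1 of the 9 was lower, and DESeq2, which gave 1 of them an adjusted p, called 0 lower. The gene that rose was IGSF9B, which encodes another adhesion protein of the immunoglobulin superfamily, found at inhibitory synapses. It had 53 and 134 counts in irradiated and 57 and 66 in untreated libraries. On the log2 scale it rose by 1.21 ± 0.21 (SE; adjusted p in edgeR = 0.00194). Its RNA-seq ratio was 1.08 (95% counting interval 0.799 to 1.46). NCAPD3, a condensin subunit gene, had the lowest value, -0.62 (edgeR adjusted p = 0.264). Its 95% interval, -1.17 to -0.07, includes the NTM value of -0.65.

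**Figure D5:**
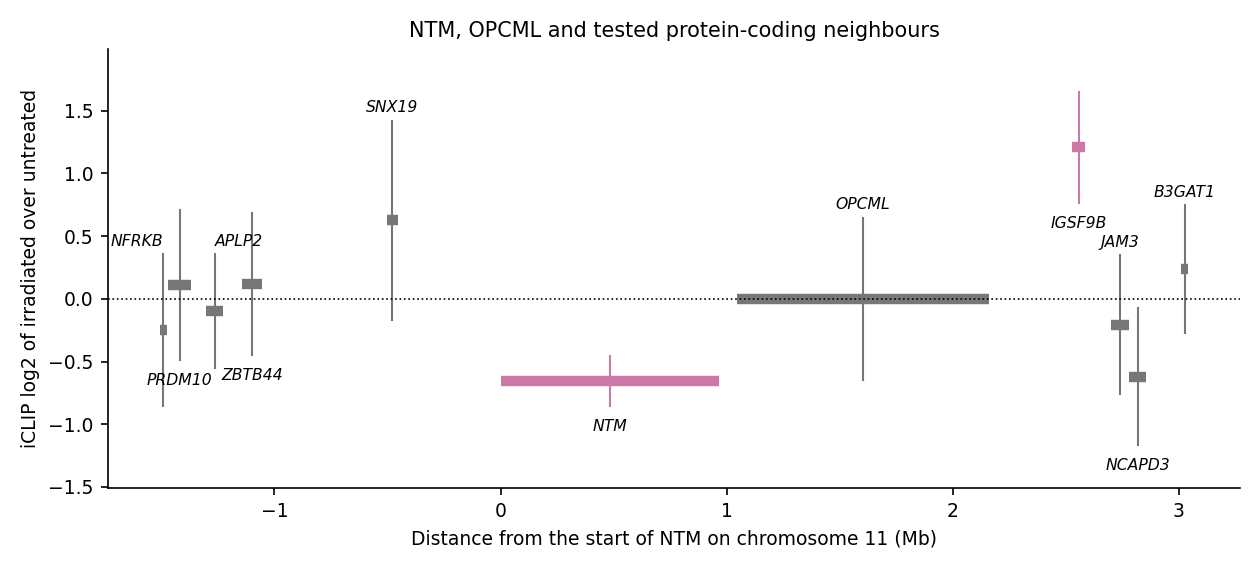
iCLIP log2 of irradiated over untreated for NTM, OPCML and 9 tested protein-coding neighbours, drawn at their distance from the start of NTM in Mb. Thick bars span each gene and thin lines are 95% intervals; coloured genes were called, NTM downward and IGSF9B upward.

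Other adhesion genes of the nervous system that belong to the immunoglobulin superfamily moved in both directions. Of 31 listed genes 27 had an iCLIP line and 24 were tested, of which 3 fell and 1 rose, against 1.07% lower and 2.43% higher among all tested genes, with a median log2 fold change of -0.10 against 0.0016 over all tested genes. NCAM1, the neural cell adhesion molecule, had 113 and 184 counts in irradiated and 354 and 336 in untreated libraries. It changed by -0.58 ± 0.14 on the log2 scale (SE; adjusted p in edgeR = 0.0254), and its RNA-seq ratio was 0.756 (95% counting interval 0.702 to 0.814). KIRREL3 changed by -0.54 ± 0.14 on the log2 scale (adjusted p in edgeR = 0.0335). UNC5C, a netrin receptor gene named after its values were seen, changed by -0.70 ± 0.15 (0.0130). The RNA-seq ratio was 1.01 (95% counting interval 0.858 to 1.19) for KIRREL3 and 0.732 (0.636 to 0.842) for UNC5C. SDK2, the relative of SDK1, rose to 557 ± 1.95 CPM in irradiated, against 297 ± 18.4 CPM in untreated libraries (SD, n = 2 each, edgeR adjusted p = 0.000431). Its RNA-seq ratio was 1.38 (95% counting interval 1.21 to 1.57). SDK1 itself, as long as NTM and also high in iCLIP, stood at 0.06 ± 0.11 (adjusted p in edgeR = 0.875, and -0.010 with library totals). KIRREL1 had -0.29 ± 0.12 (0.266) and the axon guidance receptor gene ROBO1 -0.11 ± 0.14 (0.795). The count of 3 falls depended on single libraries: 0 of this list fell without either untreated library or in DESeq2, and 1 fell without irradiated library 2 and with a replicate block.

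Genes that make or attach the GPI anchor gave no call. Of 29 genes 25 had an iCLIP line and 15 were tested, with a median of -0.13, and 0 changed in edgeR, against 3.5% of all tested genes (0 had an unadjusted p below 0.05, and DESeq2 gave 0 of them an adjusted p). Those with the most counts were PIGU, a subunit of the complex that attaches the anchor, with -0.13 ± 0.22, PIGN with -0.34 ± 0.22, PIGL with 0.28 ± 0.21 and PIGG with 0.13 ± 0.25 (SE, edgeR adjusted p = 0.865, 0.524, 0.609 and 0.881).

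Other GPI-anchored surface proteins included 2 rises among 10 tested genes, against 2.43% of all tested genes, with a median of 0.28. GPC1, a heparan sulfate proteoglycan gene, had 245 and 268 counts in irradiated and 136 and 188 in untreated libraries. It rose by 1.36 ± 0.19 (log2, SE, adjusted p in edgeR = 0.000248), and its RNA-seq ratio was 1.19 (95% counting interval 1.16 to 1.23). CDH13, the cadherin without a membrane-spanning segment, had 0.63 ± 0.17 (edgeR adjusted p = 0.0483). Its call ended without untreated 1 (0.127), untreated 2 (0.375) or irradiated 2 (0.469), with library totals (0.0950), with no filter (0.0559), with a replicate block (0.135) and in DESeq2 (0.289). GPC6, another very long gene, had -0.13 ± 0.12 (edgeR adjusted p = 0.701) and PLAUR, the urokinase receptor gene, 0.37 ± 0.18 (0.356).

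Receptor genes whose proteins are reported to bind OPCML or NEGR1 included 1 rise among 5 tested genes, against 2.43% of all tested genes, with a median of 0.19. FGFR2, a fibroblast growth factor receptor gene, had 63 and 128 counts in irradiated and 79 and 61 in untreated iCLIP libraries. It rose by 1.07 ± 0.20 (log2, SE; adjusted p in edgeR = 0.00323). Its RNA-seq values were 469 counts in irradiated and 244 in untreated cells, a ratio of 1.90 (95% counting interval 1.62 to 2.23). AXL had 0.19 ± 0.13 (edgeR adjusted p = 0.580), ERBB2 0.35 ± 0.21 (0.485) and FGFR1 -0.11 ± 0.18 (0.861). Of the cell-surface ADAM proteases, enzymes that shed adhesion proteins, 6 of 8 genes were tested and 0 changed in edgeR, against 3.5% of all tested genes (1 had an unadjusted p below 0.05, and DESeq2 called 0 of the 3 to which it gave an adjusted p). ADAM10 had -0.10 ± 0.19 (edgeR adjusted p = 0.877) and ADAM19 0.55 ± 0.17 (0.0779).

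Genes whose level over the 6 libraries was near that of NTM included MALAT1, SDK1, PVT1 and TRIO. None of these 4 fell in edgeR, against 1.07% of all tested genes, so the lack of a fall among them says little. At an unadjusted p below 0.05 the fit gave 0 of the 4 as lower. Likeness was the distance between log2 levels per 1000000 gene counts among 7837 genes with at least 50 iCLIP counts, so it is set mostly by level. The long noncoding RNA MALAT1 stood at a distance of 2.56, SDK1 at 3.07, the long noncoding RNA PVT1 at 3.21 and TRIO at 3.61. PVT1 rose by 0.73 ± 0.10 (log2, SE, adjusted p in edgeR = 0.000312). Its RNA-seq counts were 606 in the irradiated and 376 in the untreated library. MALAT1 had 0.03 ± 0.09 (edgeR adjusted p = 0.919, -0.036 with library totals and -0.0053 with no filter) and TRIO 0.34 ± 0.11 (0.114, and 0.0207 without irradiated library 2). The distance used both assays, so a like ratio of iCLIP to RNA-seq share is partly built into this choice. In untreated cells that ratio was 90.3 for PVT1, 80.4 for MALAT1, 79.8 for NTM, 46.7 for SDK1 and 10.7 for TRIO.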

How the data were processed

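The files were tables of genes with counts of sequenced cDNAs from TIRR iCLIP (4 libraries) and RNA-seq (2 libraries). The authors deposited whole-number counts per gene, per the file headers, with a gene length and the percent of the library's cDNAs that each row takes. The length used is the deposited value. The deposited percent was not used, and shares were computed here over the counts on genes. The genome build was hg38 and kallisto 0.44.0 was among the tools, per the submitters' processing notes; the sources used here do not give the step it served, the aligner, the removal of duplicates, the strand setting or the annotation. Rows for intergenic regions held 30.6% to 31.3% of iCLIP and 44.4% of RNA-seq counts and stayed out of library sizes and tests. Gene names came from a reference name table by gene ID, and from the deposited tables where that gave no name. Of the IDs, 99.9% in iCLIP and 99.8% in RNA-seq matched the name table.

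Samples were grouped by their labels. Irradiated and untreated iCLIP libraries were compared with edgeR 4.0.16 in R 4.3.3 (TMM scaling, filterByExpr, quasi-likelihood F test, two-sided), with Benjamini-Hochberg adjustment over all 9230 tested genes at 0.05. RNA-seq, with 1 library per condition, had no test: ratios carry exact counting intervals, and the size rule asked for 100 counts, a 2-fold ratio and an interval beyond 1.5-fold. Intervals cover counting error only, and cDNAs are not certain to be independent molecules. The iCLIP comparison was also simulated with 8901 genes. The same scatter was assumed for every gene and was not estimated from these libraries. In this simulation edgeR called 100% of 4-fold and 68% of 2-fold rises, and 97.8% of 4-fold and 44.4% of 2-fold falls. It also called 10 of 8711 unchanged genes. These rates hold for the assumed scatter only.

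The members and gene lists were chosen with earlier results of these data known. From each list, the text names up to 4 genes with the most iCLIP counts plus those past the test, at most 6, and the 5 genes nearest to NTM in level, of which 1 is not reported here. Alternatives were library totals, no filter, a filter at 50 counts, a replicate block, each library left out, DESeq2 1.42.0, and other denominators for the assay ratios. Start windows were those of RefSeq GRCh38.p14. Scripts ran in Python 3.11.15 with pandas 2.3.3, scipy 1.17.1 and matplotlib 3.10.9.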

Additional observations from a re-analysis of the deposited data

Results flagged for a closer look

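The values of IGLON5 lay on opposite sides of no change in the 2 assays, and neither passed its test or size rule. Both irradiated iCLIP libraries, with 10 and 25 counts, lay above both untreated ones, with 19 and 17, once scaled by library size. In RNA-seq the irradiated to untreated ratio was 0.823, with a 95% counting interval of 0.715 to 0.948. The difference between the assays was not tested, since RNA-seq has 1 library per condition, and the iCLIP log2 fold change of 0.58 (edgeR adjusted p = 0.511) was 0.21 without irradiated library 2 (edgeR adjusted p = 0.927).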

How the results depend on the processing

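The NTM call held under every alternative run, with log2 fold changes of -0.72 to -0.62; with a replicate block its edgeR adjusted p was 0.0494. Replicate numbers are shared by the groups, but same-numbered libraries did not deviate together (r = -0.09 over 9230 genes), and the block ended or made no other member's call. The number of called genes, 323, became 190 with the block, 123 in DESeq2 and 186 to 421 with each library left out, where the lone library of a group is assumed to vary like the other group's. OPCML, at 0.00071, reversed to -0.066 with library totals and -0.029 with no filter, and ranged from -0.26 to 0.32 with a library left out; NEGR1 ranged from -0.17 to 0.078, LSAMP from 0.22 to 0.35 and IGLON5 from 0.21 to 0.78. Log2 fold changes of uncalled genes also crossed 0: MALAT1 (-0.036 with library totals, -0.0053 with no filter) and SDK1 (-0.010 with library totals), and with a library left out ADAM10 (-0.33 to 0.17), PIGG (-0.16 to 0.29), PIGU (-0.46 to 0.057) and ROBO1 (-0.24 to 0.0055). The cause was not tested. NCAM1 lost its call without untreated 1 (0.333), untreated 2 (0.120) or irradiated 2 (0.0504), with the block (0.101) and in DESeq2 (0.0670). KIRREL3 lost its call in the same settings (0.147, 0.364, 0.106, 0.132 and 0.0669).

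The ratios of iCLIP to RNA-seq share moved with the denominator. With intergenic counts included, NTM had 61.4 in irradiated and 99.5 in untreated cells, LSAMP 19.97 and 17.4, and NEGR1 8.88 and 9.68; OPCML had 27.2 and IGLON5 0.859 in untreated cells. With RNA-seq counts limited to genes with an iCLIP line, chosen after seeing the data, NTM had 39.7 in irradiated and 64.3 in untreated cells, LSAMP 12.9 and 11.2, NEGR1 5.75 and 6.26, and IGLON5 0.555 in untreated cells. Depth limits OPCML and IGLON5, with 131 and 71 iCLIP counts in all.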
